A study of Mus musculus with 8 samples.

Results

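Costimulatory receptors set how strongly a T cell answers its antigen, and 10 genes of this system were followed in conventional CD4+ T cells (Tconv) of mouse melanomas. They were 6 TNF receptors (Tnfrsf9, Tnfrsf4, Tnfrsf18, Tnfrsf1a, Tnfrsf1b and Cd27), the immunoglobulin-family receptors Icos and Cd28, and the TNF-family ligands Tnfsf8 and Tnfsf11. The members were chosen by gene symbol, and all 10 were found among the 11233 genes of the table and passed the limit on low values, a mean of at least 10 normalized counts. Bulk RNA-Seq was done on 8 libraries, 4 of CCR8+ and 4 of CCR8- cells, so that the comparison shows how cells sorted with and without the chemokine receptor CCR8 differ within one treated tumor setting.

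Both groups were EGFP-negative Tconv cells sorted from subcutaneous B16-F10 tumors (a melanoma line of C57BL mice) that had been implanted in Foxp3EGFP-DTR animals. The Foxp3 locus of these mice drives EGFP together with a diphtheria toxin receptor, so Treg cells glow green and die when diphtheria toxin (DTx) is injected. All mice had received DTx, repeatedly during the second week after implantation, and tumors were taken in the third week, so both groups describe cells of Treg cell-depleted animals and no library of untreated animals was compared here. The methods name male and female mice, and the ages of the mice of these libraries were not used here. Labels number the libraries 1 to 4 in each group. The study calls the libraries of a group biological replicates and took them on a single day. No source used here says that a number stands for the same mouse in both groups, and p-values measure the spread between these libraries.

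CD28 is the constitutive costimulatory receptor of T cells and binds CD80 and CD86, whereas its relative ICOS is induced after activation and recruits phosphoinositide 3-kinase. The TNF receptors 4-1BB (Tnfrsf9), OX40 (Tnfrsf4) and GITR (Tnfrsf18) are likewise induced by activation, are abundant on Treg cells, and signal through TRAF adaptors to NF-κB. CD27 is present on naive T cells and is lost as cells differentiate, TNFR1 (Tnfrsf1a) is a widely expressed receptor with a death domain, and TNFR2 (Tnfrsf1b) lacks that domain. CD30 ligand (Tnfsf8) and RANKL (Tnfsf11) are ligands that activated T cells themselves present.

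The libraries held between 12067780 and 17802628 reads, and 3 reads, the limit below which a value was not told apart from 0, came to between 2.21 and 3.42 normalized counts. Intervals and limits of this kind cover counting error only. Ccr8, the gene of the sorting marker, had 2039, 1293, 6214 and 4637 normalized counts in CCR8- replicates 1 to 4 and 7975, 6970, 42508 and 22965 in CCR8+ replicates 1 to 4. The groups did not overlap, and Ccr8 was 2.37 higher in CCR8+ cells on the log2 scale (SE 0.62, n = 4 per group, exact permutation p = 0.0286), so the labels and the transcript go the same way. The sum of 6 T cell markers was between 61205 and 103225 normalized counts in every library. Transcripts of other cells were present in uneven amounts, with 9 macrophage and monocyte markers summing to between 27.6 and 58733 normalized counts in CCR8- and between 2516 and 26287 in CCR8+ libraries. The sum of 5 B16 melanoma markers ran from 105 to 21698 over the 8 libraries. That of 4 B cell markers ran from 29.4 to 365 normalized counts in CCR8- and from 0 to 447 in CCR8+ libraries, with Ms4a1 at 0 in every library. CCR8- replicate 1 stood apart, with 242 genes at 0 whose value in each of the other 7 libraries was 100 or more. Such genes numbered 44 for CCR8+ replicate 1 and 36 for CCR8+ replicate 3, with 0 for the remaining libraries.

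Among the 10 genes, Tnfrsf9 was the one whose CCR8+ and CCR8- values did not overlap, at about 3 times the mean level in CCR8+ cells (ratio of means 2.93). Tnfsf11 was higher and Icos lower in CCR8+ cells in all 4 same-numbered pairs, with overlapping values. Tnfrsf4 and Tnfrsf18, the most abundant members per length, kept nearly the same ratio to each other in every library, and Cd28 hardly varied. In the limma test with Benjamini-Hochberg adjustment over 11032 genes, 0 members and 0 genes of the whole table passed an adjusted p of 0.05 (percent called 0.0), so none of the differences below counts as a called change. Ccr8, the gene of the sorting marker, was not called in that test either, so 0 calls do not show that the groups are alike. At an unadjusted limma p under 0.05 there were 2 of 10 members, Tnfrsf9 and Tnfsf11, against 5.09% of all tested genes (562), and edgeR's quasi-likelihood test also called 0 genes, with 487 at an unadjusted p under 0.05. A DESeq2 Wald test on the recovered reads called 26 genes (0.236%), and 1 member, Tnfrsf9, was among them. When libraries of the same number were treated as blocks, limma called 1 gene (0.00906%) and 0 members, and DESeq2 called 124 genes (1.12%) and 3 members, Tnfrsf9, Icos and Tnfsf11.

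**Figure D1:**
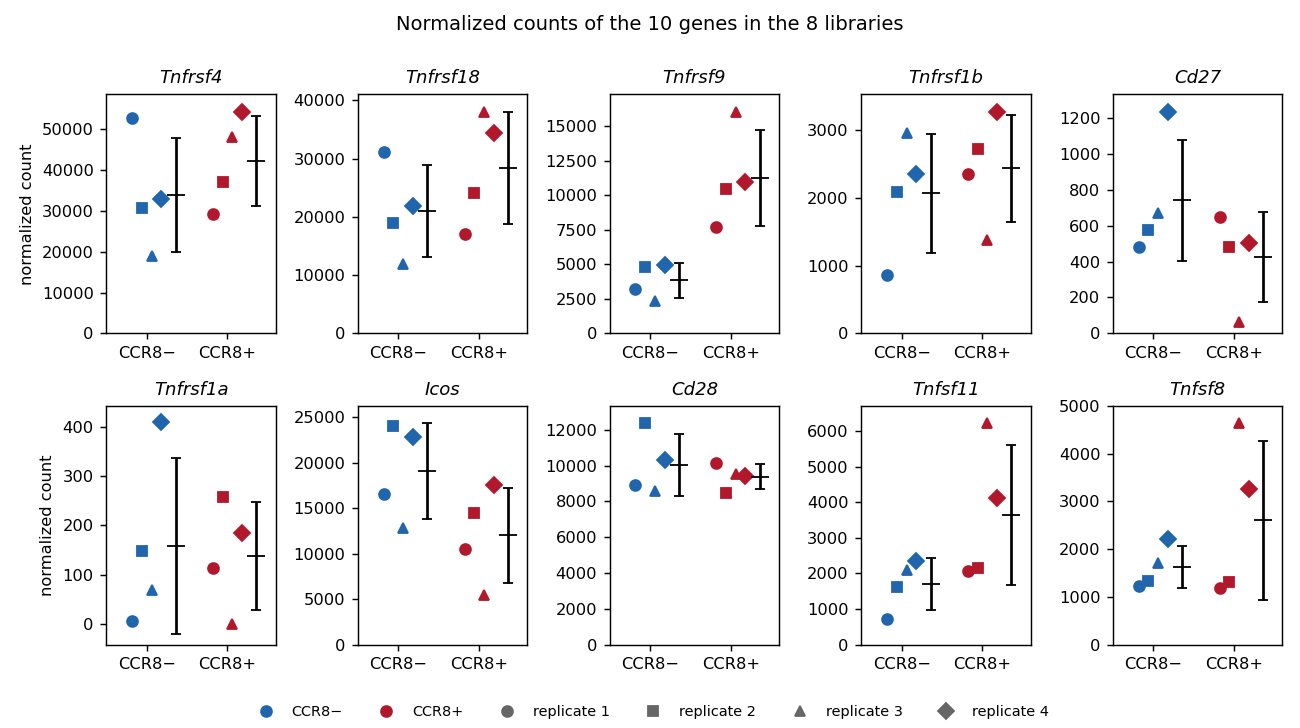
Normalized counts of the 10 genes, one panel per gene, in CCR8- (blue) and CCR8+ (red) libraries; marker shape gives the replicate number, and the black dash and bar give the mean and SD of 4 libraries. The red Tnfrsf9 points lie between 7710 and 16052, all above the blue ones, whereas the points of the other 9 genes overlap between groups.

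The plot of normalized counts by gene shows how differently the members spread. Of the 10 members, 6 had a higher and 4 a lower mean log2 level in CCR8+ cells, beside 52.4% of all tested genes with a positive difference. The median log2 fold change of the members was 0.34 and that of all tested genes 0.04. With libraries left out the members' median fell to 0.14 without CCR8- replicate 1 (all tested genes -0.08), 0.17 without CCR8- replicate 3, 0.19 without CCR8+ replicate 4 and 0.11 without replicate 3 of both groups. The count of 2 members at an unadjusted p under 0.05 was 1 without CCR8- replicate 1, without CCR8+ replicate 3 or without replicate 3 of both groups, and 4 without replicate 1 of both groups. Groups did not overlap for 1 member of 10, with the higher values in CCR8+ cells, beside 4.4% of all tested genes in either direction and 2.37% in that one. In all 4 same-numbered pairs 2 members were higher, beside 8.44% of all tested genes, and 1 member was lower, beside 8.1%. Without CCR8- replicate 1, the library that stood apart, Tnfrsf1b changed sign and the other 9 members kept their direction.

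4-1BB, encoded by Tnfrsf9, is a costimulatory receptor that appears on T cells after recent antigen stimulation. Tnfrsf9 had 3248, 4823, 2358 and 4987 normalized counts in CCR8- replicates 1 to 4 and 7710, 10436, 16052 and 10938 in CCR8+ replicates 1 to 4. Every CCR8+ library was above every CCR8- library, and CCR8+ replicate 3 was the highest of all. The means were 11284 ± 3480 normalized counts in CCR8+ and 3854 ± 1269 in CCR8- cells (SD, n = 4 each). On the log2 scale Tnfrsf9 was 1.57 higher (SE 0.30, 95% interval 0.91 to 2.22), with the limma p ranked 3 among all 11032 tested genes and an adjusted limma p of 0.788. The exact two-sided permutation test gave p = 0.0286, the smallest that 70 assignments of 4 and 4 libraries can give. The difference was 1.25, 1.11, 2.77 and 1.13 in pairs 1 to 4, so it had the same sign in each pair and was largest in the third. DESeq2 called the gene, at an adjusted p of 0.00073, whereas over the limma and edgeR settings and scalings that keep all 8 libraries its adjusted p lay between 0.365 and 0.999.

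The summed level of Treg cell markers was higher in CCR8+ cells, as that of Tnfrsf9 was, but not each marker was. The sum of 4 such markers (Ikzf2, Lrrc32, Il2ra and Ctla4) was between 10294 and 13070 normalized counts in CCR8- and between 19283 and 55496 in CCR8+ libraries, with 3 of the 4 higher in mean in CCR8+ cells. Nearly all of it came from Ctla4 and Il2ra, which activated Tconv cells also express. Ikzf2, the gene of Helios, was at 192, 213, 289 and 231 normalized counts in CCR8- and at 87.5, 81.4, 0 and 393 in CCR8+ replicates 1 to 4, and Lrrc32 was between 0 and 120 in all libraries. The part of these transcripts in the Tnfrsf9 difference was not tested. In bulk samples, fewer cells of a type and less RNA per cell cannot be told apart, here and in all comparisons that follow.

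Because Tnfrsf9 is the member with separate groups, the sequence before its start sites is shown. RefSeq (GRCm38.p6) lists 2 start sites for it. The 250 bases before the first, at chr4:150919905-150920154 on the plus strand, read 5′ to 3′:
Tnfrsf9 first start site: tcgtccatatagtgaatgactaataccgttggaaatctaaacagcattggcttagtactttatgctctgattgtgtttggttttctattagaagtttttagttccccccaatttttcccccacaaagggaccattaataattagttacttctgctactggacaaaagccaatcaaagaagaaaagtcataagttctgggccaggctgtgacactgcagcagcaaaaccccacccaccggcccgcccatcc
This window held neither an NF-κB-type motif, written GGGNNNNNCC, nor an AP-1-type motif, written TGANTCA, each searched on both strands. The window before the second start site held both, shown in capitals with 6 bases on either side. Counted from that start site they lie at -43 to -33 and -15 to -9. Both are outside the longest part of the window that lies in no annotated exon, which ends at -82. The stretch with the NF-κB-type motif (2 overlapping matches) lies at chr4:150927950-150927972 and that with the AP-1-type motif at chr4:150927978-150927996, both on the plus strand:
Tnfrsf9 NF-κB-type match: gcagctGGGGATTTCCCaggagg
Tnfrsf9 AP-1-type match: ctcagtTGAGTCAcaggtc
The first of these motifs was in 45.8% and the second in 6.75% of 32851 mouse promoter windows of 250 bases. Over the members, 8 had a promoter entry, with 9 windows, of which 5 held the first motif and 1 the second. Icos and Cd28 had no entry. A match describes letters and not a bound site.

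OX40 (Tnfrsf4) and GITR (Tnfrsf18) are encoded side by side on chromosome 4, both on the plus strand, with 9551 bases and 0 protein-coding genes between them (GENCODE M21, GRCm38). Tnfrsf4 spans positions 156013843 to 156016612, and Tnfrsf18 spans 156026164 to 156028895. Both receptors prolong the survival and expansion of activated T cells, and both are constitutively high on Treg cells. Tnfrsf4 had 52838, 30696, 19038 and 32951 normalized counts in CCR8- replicates 1 to 4 and 29348, 37186, 48253 and 54290 in CCR8+ replicates 1 to 4. The groups overlapped, since CCR8- replicate 1 was the second highest and CCR8+ replicate 1 the second lowest of all libraries. Its log2 fold change was 0.37 (SE 0.36, 95% interval -0.41 to 1.16), with an adjusted limma p of 0.847, an exact permutation p of 0.371 and higher values in CCR8+ cells in 3 of 4 pairs.

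Tnfrsf18 followed the same order over the libraries with few exceptions. It had 31111, 18975, 11905 and 21916 normalized counts in CCR8- replicates 1 to 4 and 17086, 24150, 38005 and 34315 in CCR8+ replicates 1 to 4. Again CCR8- replicate 1 lay among the CCR8+ values and CCR8+ replicate 1 among the CCR8- values. Tnfrsf18 had a log2 fold change of 0.45 (SE 0.35, 95% interval -0.33 to 1.23), with an adjusted limma p of 0.838, an exact permutation p of 0.314 and higher values in CCR8+ cells in 3 of 4 pairs. Both genes depended on single replicate numbers. Without replicate 1 the log2 fold change was 0.78 for Tnfrsf4 and 0.89 for Tnfrsf18, and without replicate 3 it was 0.05 and 0.04. An antisense gene, Gm16008, covers 414 of the 1524 exonic bases of Tnfrsf18, and since no use of strand is stated its reads cannot be told apart from those of Tnfrsf18.

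The pair was tightest in its ratio. The log2 ratio of Tnfrsf18 to Tnfrsf4 normalized counts was -0.76, -0.69, -0.68 and -0.59 in CCR8- and -0.78, -0.62, -0.34 and -0.66 in CCR8+ replicates 1 to 4. All 8 ratios lay within this narrow band, the one in CCR8+ replicate 3 highest, and their SD within groups was 0.14, against SDs of 0.51 and 0.55 for the levels of Tnfrsf4 and Tnfrsf18. The ratio differed by 0.08 between groups (exact permutation p = 0.6). As a measure of likeness, the log2 values of each gene were centred over the 8 libraries and the root mean square difference between profiles was taken. By that measure Tnfrsf18 was the nearest of 11031 genes to Tnfrsf4, and Tnfrsf4 the nearest to Tnfrsf18, at 0.128. These libraries share depth, RNA amount and sort between the genes, so this is a description of 8 libraries.

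**Figure D2:**
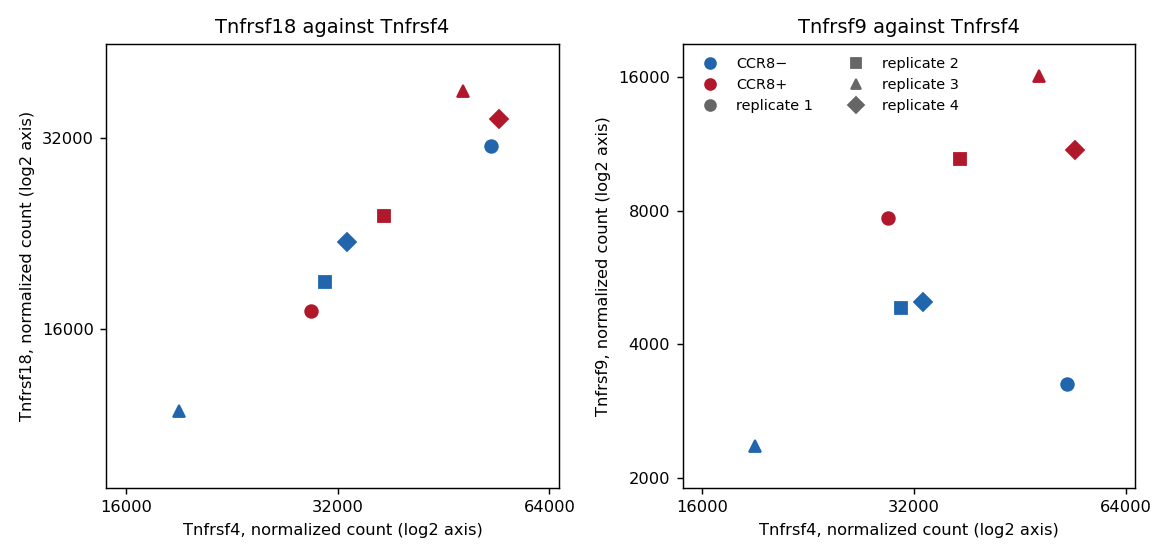
Normalized counts of Tnfrsf18 (left) and Tnfrsf9 (right) against Tnfrsf4 on log2 axes, with one point per library, CCR8- in blue and CCR8+ in red and marker shape giving the replicate number. On the left all 8 points lie near one line, and on the right the 4 CCR8+ points lie above the 4 CCR8- points.

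Tnfrsf9 did not share this profile, as the plot against Tnfrsf4 shows. Its log2 ratio to Tnfrsf4 was -4.02, -2.67, -3.01 and -2.72 in CCR8- and -1.93, -1.83, -1.59 and -2.31 in CCR8+ replicates 1 to 4. All CCR8+ ratios exceeded all CCR8- ratios, and the lowest was in CCR8- replicate 1, where Tnfrsf4 was high. The difference was 1.19 (exact permutation p = 0.0286, the smallest possible, higher in CCR8+ cells in 4 of 4 pairs). This ratio does not depend on the scaling of a library, but its numerator is the gene already described.

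Bases before the start sites of this neighbouring pair are shown because their transcripts moved together. For each gene the longest stretch of the 250 bases that lies in no annotated exon is given 5′ to 3′ on the plus strand, from RefSeq (GRCm38.p6), with positions chr4:156013611-156013694 for Tnfrsf4 and chr4:156026072-156026163 for Tnfrsf18:
Tnfrsf4: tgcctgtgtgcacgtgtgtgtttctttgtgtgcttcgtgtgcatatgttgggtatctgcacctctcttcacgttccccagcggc
Tnfrsf18: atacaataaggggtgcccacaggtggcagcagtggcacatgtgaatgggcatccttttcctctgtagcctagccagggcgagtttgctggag
Neither 250-base window held a match to the motifs GGGNNNNNCC or TGANTCA, so nothing is in capitals, and nothing about the factors that bind such motifs follows from that.

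The remaining TNF receptors were lower in level and had wide intervals. TNFR2 (Tnfrsf1b), a receptor for TNF that costimulates T cells, had 863, 2084, 2964 and 2359 normalized counts in CCR8- and 2357, 2729, 1386 and 3270 in CCR8+ replicates 1 to 4. The groups overlapped, with CCR8- replicate 1 and CCR8+ replicate 3 at the low end. Tnfrsf1b had a log2 fold change of 0.30 (SE 0.39, adjusted limma p = 0.880, exact permutation p = 0.571), and it was -0.07 without CCR8- replicate 1.

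CD27, the receptor for CD70, marks naive and early memory T cells. Cd27 had 481, 578, 674 and 1236 normalized counts in CCR8- and 648, 484, 63.9 and 501 in CCR8+ replicates 1 to 4. CCR8+ replicate 3 was far below all others, and the remaining values overlapped. The log2 fold change was -1.13 (SE 0.68, 95% interval -2.61 to 0.36, adjusted limma p = 0.838, exact permutation p = 0.229), and it was -0.36 without CCR8+ replicate 3. Cytotoxic cells can carry CD27 too, and the sum of 5 CD8 T and NK cell markers was 1034, 2173, 1875 and 5166 normalized counts in CCR8- and 1461, 1286, 497 and 1506 in CCR8+ replicates 1 to 4, with 0 of the 5 markers higher in mean in CCR8+ cells. The lowest and the highest sum were in the same libraries as the lowest and the highest Cd27 value, and the part of these transcripts in the Cd27 values was not tested. The gene shares 129 exonic bases with Mir8113 on the same strand.

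TNFR1 (Tnfrsf1a) was the rarest member. It had 5.91, 148, 69.3 and 410 normalized counts in CCR8- and 113, 257, 0 and 185 in CCR8+ replicates 1 to 4, from 648 and 623 reads in all. The value of 0 in CCR8+ replicate 3 allows up to 3 reads, or 3.42 normalized counts, and both groups spread over most of the range. The log2 fold change of -0.61 (SE 1.92, 95% interval -4.83 to 3.61, adjusted limma p = 0.960, exact permutation p = 0.771) moved between -1.39 and -0.10 with pseudocounts of 0.1 and 10. No difference was detectable with this spread between libraries, a log2 SD of 3.76 in CCR8+ and 2.51 in CCR8- cells. Macrophages express this receptor too, and the sum of the 9 macrophage and monocyte markers was 27.6, 3591, 1079 and 58733 normalized counts in CCR8- and 26287, 16429, 2516 and 18378 in CCR8+ replicates 1 to 4. The library with the highest sum, CCR8- replicate 4, also had the highest Tnfrsf1a value, and CCR8- replicate 1, with the lowest sum, had 6 reads of the gene. Other libraries did not keep this order. CCR8+ replicate 1 had 113 at a sum of 26287, but CCR8+ replicate 2 had 257 at 16429. CCR8+ replicate 3 had 0 at a sum of 2516, but CCR8- replicate 3 had 69.3 at 1079. The part of macrophage transcripts in these values was not tested.

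ICOS and CD28 are encoded near each other on chromosome 1, with 204567 bases and 1 protein-coding gene between them. Icos had 16566, 24010, 12830 and 22843 normalized counts in CCR8- and 10555, 14436, 5480 and 17515 in CCR8+ replicates 1 to 4. Within each number the CCR8+ value was the lower one, although the groups overlapped, and CCR8+ replicate 3 had the lowest value of all. The means were 11996 ± 5195 in CCR8+ and 19062 ± 5287 in CCR8- cells (SD, n = 4 each). Icos had a log2 fold change of -0.75 (SE 0.36, 95% interval -1.55 to 0.05), with an adjusted limma p of 0.838 and an exact permutation p of 0.143, and it was -0.41 without CCR8+ replicate 3.

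Cd28 was the steadiest member. It had 8892, 12363, 8594 and 10333 normalized counts in CCR8- and 10124, 8461, 9519 and 9420 in CCR8+ replicates 1 to 4. The values overlapped between groups and lay between 8461 and 12363, with a within-group SD of 0.19 on the log2 scale, and 0.997% of all tested genes had a smaller one. The log2 fold change was -0.09 (SE 0.20, 95% interval -0.53 to 0.35, adjusted limma p = 0.943, exact permutation p = 0.6), so a change of more than about 0.53 in either direction lay outside the interval.

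Set against Cd28 within each library, Icos kept its direction. The log2 ratio of Icos to Cd28 was 0.90, 0.96, 0.58 and 1.14 in CCR8- and 0.06, 0.77, -0.80 and 0.89 in CCR8+ replicates 1 to 4. The CCR8+ ratio was lower in 4 of 4 pairs, and the groups overlapped. The difference was -0.66 (exact permutation p = 0.143) and was -0.42 without replicate 3 of both groups. The ratio of Cd27 to Cd28 differed by -1.04 (exact permutation p = 0.257), or by -0.21 without replicate 3 of both groups, and that of Tnfrsf1b to Tnfrsf1a by 0.91 (exact permutation p = 0.714), each with 2 pairs in either direction.

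**Figure D3:**
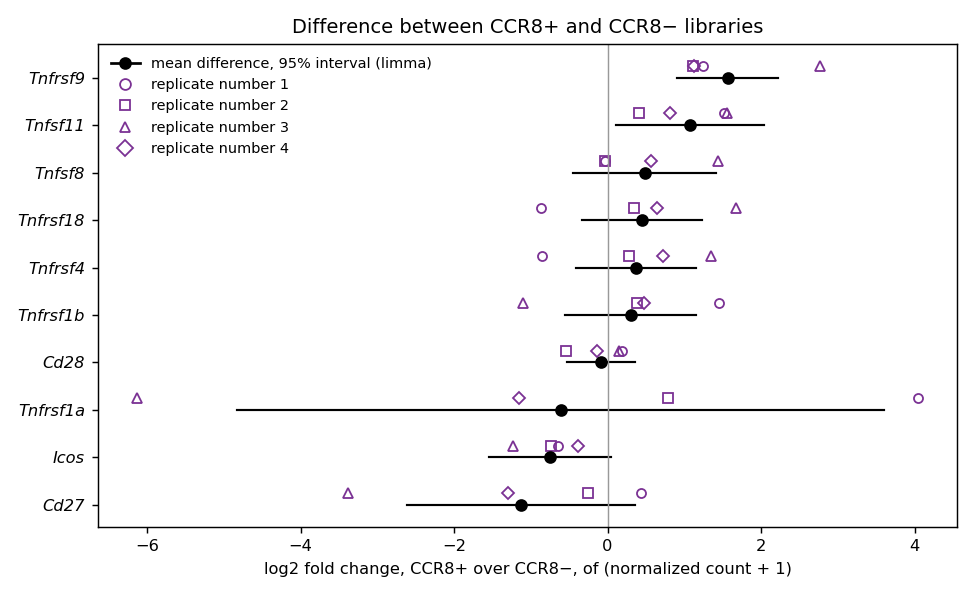
Log2 fold change of each gene, CCR8+ over CCR8-, on log2(normalized count + 1); black points and lines give the mean difference with its 95% interval from limma, and open purple symbols give the difference within each same-numbered pair. Tnfrsf9 and Tnfsf11 have intervals above 0, Icos has all 4 symbols below 0, and the interval of Tnfrsf1a runs from -4.83 to 3.61.

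RANKL (Tnfsf11), the ligand of RANK on dendritic cells and osteoclast precursors, was the second member with an unadjusted p under 0.05. Tnfsf11 had 718, 1616, 2103 and 2351 normalized counts in CCR8- and 2052, 2144, 6217 and 4127 in CCR8+ replicates 1 to 4. The CCR8+ value was higher in each pair, and the groups overlapped because CCR8+ replicates 1 and 2 fell below CCR8- replicate 4. The log2 difference was 1.07 (SE 0.44, 95% interval 0.11 to 2.03, limma p = 0.0316), the adjusted limma p 0.838 and the exact permutation p 0.143. It was 0.71 without CCR8- replicate 1 and 0.76 without CCR8+ replicate 3.

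CD30 ligand (Tnfsf8) had 1217, 1342, 1715 and 2213 normalized counts in CCR8- and 1190, 1312, 4640 and 3270 in CCR8+ replicates 1 to 4. In both groups replicates 1 and 2 were nearly equal, and CCR8+ replicates 3 and 4 lay above all others. The log2 difference was 0.48 (SE 0.42, adjusted limma p = 0.839, exact permutation p = 0.4), and it was 0.13 without CCR8+ replicate 3. Each ligand was the nearest member to the other in its profile over the libraries, with a root mean square difference of 0.44, and 87 genes that are not members lay nearer to Tnfsf8 and 60 nearer to Tnfsf11.

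Levels between genes were compared per kilobase of exon. The order of the median was Tnfrsf4, Tnfrsf18, Icos, Tnfrsf9, Cd28, Tnfsf11, Tnfrsf1b, Tnfsf8, Cd27 and Tnfrsf1a, from 25691 normalized counts per kb for Tnfrsf4 to 50.6 for Tnfrsf1a. The order of the medians was the same when the length of the longest coding transcript was used. That length was 810 bases for Icos, against 3430 exonic bases, and its median there was 19137, near 21366 for Tnfrsf18. In CCR8- replicate 2 Icos, with 24010 against 18975 counts and a coding transcript of 810 against 1078 bases, then lay above Tnfrsf18. The comparisons within libraries that follow use exonic bases only. Tnfrsf4 ranked 15 and Tnfrsf18 ranked 32 by level among the 10620 tested genes with a known length. Per kilobase of exon, Tnfrsf4 was above Tnfrsf18, and Tnfrsf18 above Icos, in all 8 libraries. Icos was above Tnfrsf9 in 7 libraries, with CCR8+ replicate 3 the exception, and Tnfrsf9 was above Cd28 in 5, among them all CCR8+ libraries. Cd28 and Tnfsf11 (6 of 8) and Tnfrsf1b and Tnfsf8 (5 of 8) were neighbours whose order also differed between libraries, whereas the other steps held in all 8.

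**Figure D4:**
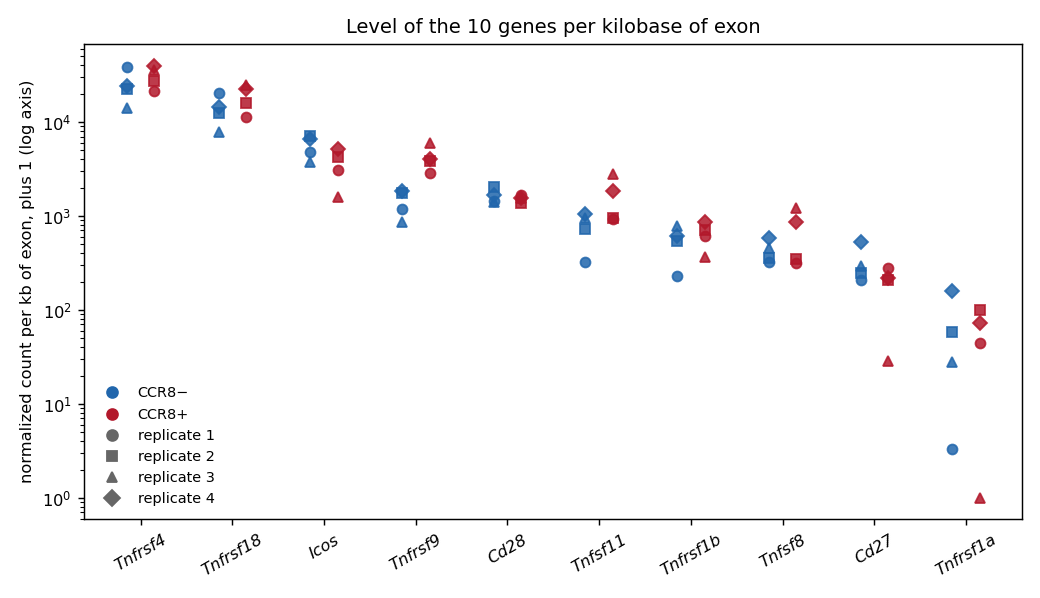
Normalized counts per kb of exon plus 1, on a log axis, of the 10 genes ordered by their median, with one point per library, CCR8- in blue and CCR8+ in red and marker shape giving the replicate number. Tnfrsf4 and Tnfrsf18 lie above all other genes in every library, and Tnfrsf1a lies lowest.

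Of the summed level per kb of exon of the 8 receptors, Tnfrsf4 and Tnfrsf18 together made up between 75.0% and 88.2% in the 8 libraries. The share of Tnfrsf9 was 1.78%, 3.80%, 3.0% and 3.66% in CCR8- and 6.87%, 7.16%, 8.46% and 5.42% in CCR8+ replicates 1 to 4. That of Icos was 7.20%, 15.0%, 13.0% and 13.3% in CCR8- and 7.47%, 7.86%, 2.29% and 6.89% in CCR8+ replicates 1 to 4. The Tnfrsf9 shares were separate between groups, and the Icos shares overlapped only through CCR8- replicate 1, which lay below CCR8+ replicates 1 and 2. These shares restate the levels above, since they come from the same values. They also depend on the length used. With the longest coding transcript, 810 bases for Icos against 3430 exonic bases, the share of Icos would be larger and that of Tnfrsf4 and Tnfrsf18 smaller.

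The 5 genes of the whole table nearest to Tnfrsf9 in their profile were Eif4ebp1, which encodes a translation repressor (root mean square difference 0.30), the inhibitory receptor gene Ctla4 (0.31), Ggh (0.35), Ehd1 (0.37) and the hypoxia-inducible lipid droplet gene Hilpda (0.37). Their log2 fold changes were between 1.12 and 1.40, and they were chosen for their likeness to a gene with separate groups. The nearest member to Tnfrsf9 was Tnfsf11, at 0.63, and 212 other genes lay nearer.

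The other genes of these pathways were described by 5 lists, beside a median log2 fold change of 0.04 over all tested genes. Of the TNF superfamily ligands, 12 of 15 listed genes were in the table and tested, with 7 higher and 5 lower in CCR8+ cells, 0 called and a median of 0.59. The sign of that median turned with single libraries and with the test, since it was -0.41 without CCR8- replicate 1, -0.03 without CCR8+ replicate 4, -0.33 without replicate 2 of both groups and -0.31 with edgeR and with DESeq2. Ltb, which encodes lymphotoxin beta, was lower at 3758 ± 1461 against 5712 ± 763 normalized counts (log2 -0.68, exact permutation p = 0.114, adjusted limma p = 0.838), and it was the one ligand of the list with an unadjusted p under 0.05. The death ligand gene Fasl had a log2 fold change of -0.75 (SE 0.40). The adjusted limma p was 0.838 for Tnfsf10 (TRAIL, 0.71, SE 0.60) and 0.849 for Tnfsf14 (LIGHT, 0.68, SE 0.68). Lta had 453 ± 283 normalized counts in CCR8+ and 300 ± 243 in CCR8- cells, with a CCR8- library at 0, so that its log2 value of 2.25 (SE 1.70) depends on the added 1. Tnfsf13b (BAFF) likewise had a CCR8+ library at 0, at 90.2 ± 68.8 against 219 ± 68.6 normalized counts (log2 -2.57, SE 1.52).

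Of the other TNF receptors, 15 of 22 listed genes were tested, with 8 higher and 7 lower, 0 called and a median of 0.45. Without CCR8- replicate 1 this median was -0.32, without CCR8+ replicate 2 it was -0.49, with a limit of 100 on the mean -0.43, with edgeR 0.18 and without replicate 3 of both groups 1.43. Tnfrsf26 had 113 ± 76.5 normalized counts in CCR8+ and 511 ± 256 in CCR8- cells with separate groups (log2 -2.35, exact permutation p = 0.0286, adjusted limma p = 0.838). Tnfrsf25, which encodes the death receptor DR3 that costimulates T cells, was at 537 ± 311 against 1025 ± 172 (log2 -1.09, exact permutation p = 0.0571, adjusted limma p = 0.838). Tnfrsf8, the receptor for CD30 ligand, was at 88.3 ± 100 against 8.37 ± 14.4 normalized counts with overlapping values (log2 3.60, SE 1.83). Also among the named genes of this list, Ltbr had a log2 fold change of 3.57 (SE 1.79), Tnfrsf12a of 2.06 (SE 1.45) and Tnfrsf10b of -0.85 (SE 0.99). Tnfrsf8 and Ltbr had a CCR8- library at 0, and all 4 of these genes had low counts and wide errors.

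Of the adaptors that carry signals from TNF receptors, all 20 listed genes were tested, with 10 higher and 10 lower, 0 called and a median of -0.05, which was 0.08 without CCR8+ replicate 2 and -0.23 without CCR8- replicate 4. Tank, which binds TRAF proteins, was at 2032 ± 349 in CCR8+ and 1227 ± 458 normalized counts in CCR8- cells with separate groups (log2 0.82, exact permutation p = 0.0286, adjusted limma p = 0.838). Traf1, an NF-κB target and adaptor of 4-1BB, was at 7016 ± 1458 against 5136 ± 1348 (log2 0.47, exact permutation p = 0.143, adjusted limma p = 0.838), with overlapping values. Tnfaip3, the ubiquitin editor A20 that restrains NF-κB, was at 12566 ± 1938 against 17553 ± 5260 (log2 -0.45, exact permutation p = 0.0857, adjusted limma p = 0.838). The values of Ikbkb (log2 -0.70, SE 0.36) and Traf2 (log2 -0.47, SE 0.30) also overlapped. Traf3 was at 444 ± 245 against 263 ± 180 normalized counts, with a CCR8- library at 0 behind its log2 value of 2.26 (SE 1.68).

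All 8 other genes of the CD28 family and its ligands were tested, with 5 higher and 3 lower, 0 called and a median of 0.26, which was -0.15 without CCR8- replicate 1 and 0.0072 without CCR8+ replicate 4. Ctla4, the inhibitory receptor that competes with CD28 for its ligands, was at 25827 ± 12152 in CCR8+ and 9657 ± 2065 normalized counts in CCR8- cells with separate groups (log2 1.34, SE 0.32, exact permutation p = 0.0286, adjusted limma p = 0.83). Pdcd1, which encodes PD-1, was at 13953 ± 2866 against 7101 ± 2518, also with separate groups (log2 1.02, SE 0.29, exact permutation p = 0.0286, adjusted limma p = 0.83). Thus Ctla4 and Pdcd1 had higher values in all CCR8+ libraries, Cd28 differed by -0.09 and Icos was lower in each pair. The ligands of the list had small differences or wide errors, with log2 values of 0.38 for Pdcd1lg2, -0.06 for Cd274, -0.85 for Icosl (SE 0.84) and -2.02 for Cd86 (SE 1.68, with a CCR8+ library at 0).

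Of the genes that signal below CD28 and ICOS, all 17 were tested, with 5 higher and 12 lower, 0 called and a median of -0.23, and 5 of 17 had an unadjusted limma p under 0.05 beside 5.09% of all genes. That count rested on single libraries, since it was 1 without CCR8- replicate 3, 2 without CCR8- replicate 1, CCR8+ replicate 3 or CCR8+ replicate 4, and 2 without the intensity trend. Pik3cd, the catalytic subunit p110δ of the kinase that ICOS recruits, was at 1100 ± 271 in CCR8+ and 1874 ± 567 normalized counts in CCR8- cells with separate groups (log2 -0.76, exact permutation p = 0.0286, adjusted limma p = 0.838). Pik3ip1, an inhibitor of that kinase, was at 247 ± 146 against 674 ± 168 with separate groups in the same direction (log2 -1.68, exact permutation p = 0.0286, adjusted limma p = 0.838). The values of Pik3ca (log2 1.47) and Bcl10 (log2 0.37) overlapped between groups.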

How the data were processed

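RNA-Seq libraries of 4 CCR8+ and 4 CCR8- samples were grouped by their labels. According to the methods and the submitters' processing notes, the authors trimmed reads with cutadapt, aligned them to NCBIM37 (mm9) with hisat2, kept uniquely mapped reads and counted with HTSeq. The methods name normalization to library size together with one on intergenic reads. HTSeq's settings for strand and the tool versions are not given in the sources used here. What was deposited is a signal for every gene, namely read counts divided by 1 factor per library. Each was a whole multiple, within 0.01 reads, of the value of 1 read for 100% of values in all 8 libraries, so that whole reads were recovered. Totals of the deposited values were not equal, and ran from 11469410 in CCR8- replicate 3 to 14394101 in CCR8+ replicate 3.

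The deposited values were tested with limma 3.58.1 (R 4.3.3, intensity trend) on log2(value + 1), for 11032 genes whose mean was 10 or more, and p-values were adjusted by Benjamini-Hochberg, with 0.05 as the limit. Fold changes are on that scale. The added 1 shrinks changes of low values, whereas a single library at or near 0 can make a log2 change larger than the means differ. Each member and each ratio also had an exact two-sided permutation test of mean log2 values over 70 assignments. There were 10 such tests of members. DESeq2 1.42.0 and edgeR 4.0.16 were run on recovered reads. The named genes are the members, Ccr8, up to 3 higher and 3 lower genes of each list by smallest p, and the 5 genes nearest to Tnfrsf9. The members and lists were chosen with earlier results of these data known. Fits were checked on simulated data. Lengths and positions come from GENCODE M21 (GRCm38) by symbol, a later build than the authors used. Some genes are not reported here.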

Additional observations from a re-analysis of the deposited data

Results flagged for a closer look

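Among 30 groups of 4 values (10 genes and 5 ratios in each population), 2 had 1 library far from the other 3, with a gap to its neighbour above the 95% limit of Dixon's test, and chance flags about 1 in 20 such groups. Both were ratios in CCR8+ replicate 3. The log2 ratio of Cd27 to Cd28 was -7.20 in that library, with a gap of 0.918 of the range, because Cd27 was at 63.9 normalized counts while Cd28, at 9519, was near its level elsewhere. The log2 ratio of Tnfrsf1b to Tnfrsf1a, each with 1 added, was 10.44 there, with a gap of 0.863 of the range, and it rests on a Tnfrsf1a count of 0, so its size depends on the added 1. CCR8+ replicate 3 also had the highest Tnfrsf9, Tnfsf8, Tnfsf11 and Ccr8 values and the lowest Icos value of all libraries, and 36 genes were at 0 there whose value was 100 or more in each other library.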

How the results depend on the processing

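The number of genes called, 0 in the limma fit, was 1 with the replicate number as a block, 2 without the intensity trend, 26 with DESeq2 and 124 with DESeq2 and the block, and it stayed 0 with each library or replicate number left out. Of the members, 1 was called by DESeq2 (Tnfrsf9) and 3 with the block added (Tnfrsf9, adjusted p = 0.00074, Icos, 0.0228, and Tnfsf11, 0.0372), where 1.12% of all genes were called. In the lists, DESeq2 called 1 gene of the CD28 family, and with the block 2 of that family, 1 other TNF receptor and 1 gene below CD28 and ICOS. In limma the block left 0 members called, and Icos kept -0.75 with a smaller SE (0.21) and Tnfsf11 kept 1.07 (SE 0.26), while 3 members had an unadjusted p under 0.05. After the group mean was taken off, the correlation of same-numbered libraries was 0.0682, 0.138, 0.108 and 0.217 for numbers 1 to 4. Libraries of different numbers had correlations between -0.171 and 0.101, and 7 of 8 libraries correlated best with their own number. The main fit did not pair the libraries, because the methods name no block, so the fits with the block are given as alternatives. Whether a number stands for the same mouse in both groups was not tested.

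Leaving out libraries turned the direction of the log2 fold change of Tnfrsf1b (-0.072 without CCR8- replicate 1, -0.079 without replicate 1), Cd28 (0.018 without CCR8- replicate 2, 0.067 without replicate 2) and Tnfrsf1a (0.21 without CCR8- replicate 4, 1.25 without CCR8+ replicate 3, 1.23 without replicate 3). The difference in the ratio of Tnfrsf18 to Tnfrsf4 was -0.0062 and that of Tnfrsf1b to Tnfrsf1a -0.46 without replicate 3, against highest values of 0.13 and 2.09 without another number. The cause was not tested. Ranges were 1.16 to 1.73 for Tnfrsf9, 0.05 to 0.78 for Tnfrsf4, 0.04 to 0.89 for Tnfrsf18, -2.17 to 1.25 for Tnfrsf1a, -0.079 to 0.77 for Tnfrsf1b, -0.18 to 0.067 for Cd28, -1.65 to -0.36 for Cd27, -0.97 to -0.41 for Icos, 0.13 to 0.78 for Tnfsf8 and 0.71 to 1.30 for Tnfsf11. The ratio of Cd27 to Cd28 differed by -1.48 to -0.21 and that of Icos to Cd28 by -0.82 to -0.42. The Tnfrsf9 to Tnfrsf4 ratio differed by 0.89 to 1.45 with 1 number left out, where 3 against 3 libraries cannot go below an exact permutation p of 0.1.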
